A study of Mus musculus with 2 samples.

Results

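The genes of the mouse alpha-globin locus were *Hba-x*, *Hba-a1*, *Hba-a2* and *Hbq1b*, 4 of the 29453 genes in the count tables. They were taken by name, with earlier results of these data known, and were followed through both fractions, the blood stages and the cells outside blood. Mutant and wildtype cells of the same chimeric mouse embryos were profiled by droplet single-cell RNA-seq. The tdTom+ fraction came from a male, tdTomato-marked embryonic stem cell clone (1 clone) in which a frameshift of 38 bases disrupts exon 4 of *Gata1*; these cells were injected into C57BL/6 blastocysts at E3.5. The tdTom- fraction came from the wildtype host of the same embryos and carried neither the marker nor the mutation. A pool of 6 embryos was sorted into 1 library per fraction. The labels gave E8.5 for the tdTom+ and E8.6 for the tdTom- library. The titles of both libraries gave E8.5, the day at which the study states that the embryos were harvested. With 1 library per fraction no test was possible, and each interval below is an exact 95% interval for counting error only.

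Haemoglobin is built from alpha-type and beta-type chains. The alpha-globin locus holds *Hba-x*, which codes for the embryonic zeta-globin chain, followed by the adult alpha-globin genes *Hba-a1* and *Hba-a2* and the theta-globin gene *Hbq1b*, whose product has no established role in haemoglobin. The first red cells of the mouse embryo, the primitive erythrocytes of the yolk sac, express the embryonic and the adult alpha-type genes together. Transcription of the locus is driven by upstream enhancers, most of which lie in introns of the neighbouring gene *Nprl3* and are bound by Gata1, Tal1 and their partners.

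On the GRCm38.p6 assembly, RefSeq places *Hba-x* at chr11:32276600-32278116, *Hba-a1* at chr11:32283672-32284486, *Hbq1b* at chr11:32286964-32287912 and *Hba-a2* at chr11:32296492-32297310, all on the plus strand. In GENCODE M21 each has 3 exons, and the introns sum to 916 bases in *Hba-x*, 256 bases in *Hba-a1* and *Hba-a2*, and 201 bases in *Hbq1b*. The adult pair is nearly identical where it aligns: of the transcript bases that align, 537 matched and 1 differed. A further 177 alignment columns were gaps, since the annotated models differ in length. The division of UMIs between *Hba-a1* and *Hba-a2* rests on these bases and is uncertain. How reads that match both copies were counted was not checked here. The adult sum is therefore uncertain too, as are the *Hba-x* shares and the alpha-to-beta ratios below. *Hbq1b* aligned with its copy *Hbq1a* at 532 matching and 29 differing bases.

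The 250 bases before the RefSeq starts are shown for the 3 kinds of gene, whose levels differed between the fractions to unlike extents below. They are also shown because *Gata1*, the mutated gene, codes for a factor that binds GATA motifs. Whether these bases bear on the levels was not tested. Capitals mark GATAA (a form of the GATA factor site), TATAA (the TATA box), CCAAT (the CCAAT box) and CACCC (the CACCC box). Both strands were searched, so that a match on the minus strand shows its reverse complement. The first window is at chr11:32276350-32276599, the second at chr11:32283422-32283671 and the third at chr11:32286714-32286963, all plus strand, from RefSeq on GRCm38.p6. GENCODE M21 starts its models of *Hba-x* and *Hba-a1* further upstream, within these windows.
Hba-x: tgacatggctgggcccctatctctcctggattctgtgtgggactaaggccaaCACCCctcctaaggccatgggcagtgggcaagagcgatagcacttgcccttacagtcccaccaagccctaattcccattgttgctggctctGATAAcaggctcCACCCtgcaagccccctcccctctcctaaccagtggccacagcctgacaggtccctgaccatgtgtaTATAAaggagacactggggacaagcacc
Hba-a1: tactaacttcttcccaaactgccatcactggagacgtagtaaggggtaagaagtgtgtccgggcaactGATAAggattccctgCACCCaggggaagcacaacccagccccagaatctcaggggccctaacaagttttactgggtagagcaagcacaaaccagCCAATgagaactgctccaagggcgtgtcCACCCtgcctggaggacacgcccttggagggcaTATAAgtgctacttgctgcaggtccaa
Hbq1b: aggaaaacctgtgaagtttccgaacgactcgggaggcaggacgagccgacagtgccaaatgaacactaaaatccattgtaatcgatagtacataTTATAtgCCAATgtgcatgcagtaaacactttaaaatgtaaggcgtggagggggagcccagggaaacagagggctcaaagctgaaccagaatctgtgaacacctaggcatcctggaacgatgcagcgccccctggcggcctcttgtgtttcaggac

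The *Hba-a2* window matched that of *Hba-a1* at 97.6% of alignment columns and held the same motifs. *Hba-x*, *Hba-a1* and *Hba-a2* each held 1 match to GATAA, 1 to the TATA box and 2 to the CACCC box. *Hba-a1* and *Hba-a2* held 1 CCAAT box, and *Hba-x* held none. *Hbq1b* held no match to GATAA or the CACCC box, 1 CCAAT box, and 1 match to TATAA on the minus strand. That match lay 156 to 152 bases before the start. The TATAA matches of *Hba-x*, *Hba-a1* and *Hba-a2* were on the plus strand and began 28, 27 and 30 bases before the start. Of the 32851 RefSeq promoter windows of this length, 22.6% held GATAA and 22.8% the TATA box. The CCAAT box was in 33.8% of them, and the CACCC box in 52.0%. These are letter matches in a window, and not sites of binding. Other forms of the GATA site, such as GATAG, were not searched.

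The libraries held 8981 tdTom+ and 9252 tdTom- cells with 167940767 and 157174026 spliced UMIs, a median of 17598 and 15996 per cell. Of the cell barcodes, 18 were shared between the libraries. The tdTomato column was at 0 in both tables and so checked no label. *Gata1* itself, in CPM (spliced UMIs of a gene for each 1000000 spliced UMIs of all genes in the same cells), was at 30.9 in the tdTom+ cells matched to the early erythroid stage described below. The tdTom- cells of that stage had 138.7 CPM; UMI counts do not read the frameshift and so do not check it. After removal of called doublets 17302 cells remained. Sub-clusters of the blood and endothelial cells, formed without the globin genes, were named by fixed markers, as "-like". The tdTom- fraction held 5 erythroid-like sub-clusters, called stages 1 to 5 in rising order of the summed erythroid markers (among them *Alas2*, *Klf1*, *Smim1*, *Hemgn*, *Slc4a1*, *Epor* and *Rhag*). They had 400, 398, 294, 65 and 238 tdTom- cells and marker sums of 1282, 1941, 1950, 2037 and 2104 CPM. The intervals of stages 2, 3 and 4 overlapped, as did those of stages 4 and 5, so the order among these was not resolved. Stage 4 was led by the stress genes *Cdkn1a* and *Ccng1*. Most tdTom+ blood cells lay apart from these, in 4 progenitor-like sub-clusters. Of the tdTom+ blood cells, 1306 had stage 1 as the most frequent sub-cluster among their 15 nearest tdTom- blood cells, and these are the matched tdTom+ cells of the early stage. Their erythroid marker sum was 547.7 CPM against 1282 CPM in tdTom- stage 1, and their progenitor marker sum was 1094 against 594.5 CPM. The summed myeloid markers (7 genes) were at 13.2 against 0.395 CPM, and the summed megakaryocyte markers (7 genes) at 32.6 against 76.2 CPM. *Spi1*, a myeloid transcription factor, was at 61.7 against 1.58 CPM. The match is thus to the nearest stage present and not to an equal one, and the part of these gaps in the results was not tested.

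In wildtype cells, *Hba-x* was the main alpha-type transcript at every stage, and all 4 genes were higher in later stages than in stage 1. *Hba-x* stood at 31486 CPM in stage 1, 61648 in stage 2, 59384 in stage 3, 67187 in stage 4 and 63348 in stage 5. The step lay between stage 1 and the others, and the 4 later stages differed by less among themselves. *Hba-a1* followed with 2079, 4577, 4471, 5763 and 4930 CPM over stages 1 to 5. *Hba-a2* stood at 587.4, 1438, 1382, 1840 and 1632 CPM. *Hbq1b* was rare, at 24.2, 42.6, 39.7, 49.4 and 46.3 CPM. Stage 4, led by the stress genes, had the highest value of all 4 genes, although its interval for *Hbq1b* (37.0 to 64.7 CPM) overlapped those of stages 2, 3 and 5.

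Against stage 1, in stage 5 of the tdTom- fraction *Hba-x* was 2.01 times as high, on the log2 scale a difference of 1.01 (95% interval 1.00 to 1.02), which sits at the 2-fold line. *Hba-a1* was 2.37 times as high (log2 1.25, 1.22 to 1.28) and *Hba-a2* 2.78 times (log2 1.47, 1.42 to 1.53). *Hbq1b* was 1.91 times as high (log2 0.94, 0.63 to 1.24). The adult genes thus gained more than the embryonic gene. The summed megakaryocyte markers were at 76.2 CPM (70.1 to 82.7) in stage 1 and 27.3 CPM (22.4 to 33.1) in stage 5. Their part in the stage differences was not tested. Of 6112 genes with at least 100 UMIs in both groups together, 24 were at least 2-fold higher in stage 5, or 0.393%, 125 were at least 2-fold lower (2.05%) and 149 passed in either direction (2.44%). The median log2 difference of these genes was -0.18. Of the 4 alpha-globin locus genes 3 were at least 2-fold higher, with a median of 1.13. Of the other globin genes 5 of 7 were measured well enough, and 2 were at least 2-fold higher: *Hbb-y*, the embryonic epsilon-type gene, at 5.58 times, and the adult gene *Hbb-bs* at 2.15 times. *Hbb-bh1*, the other main embryonic beta-type gene, was 1.57 times as high.

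**Figure D1:**
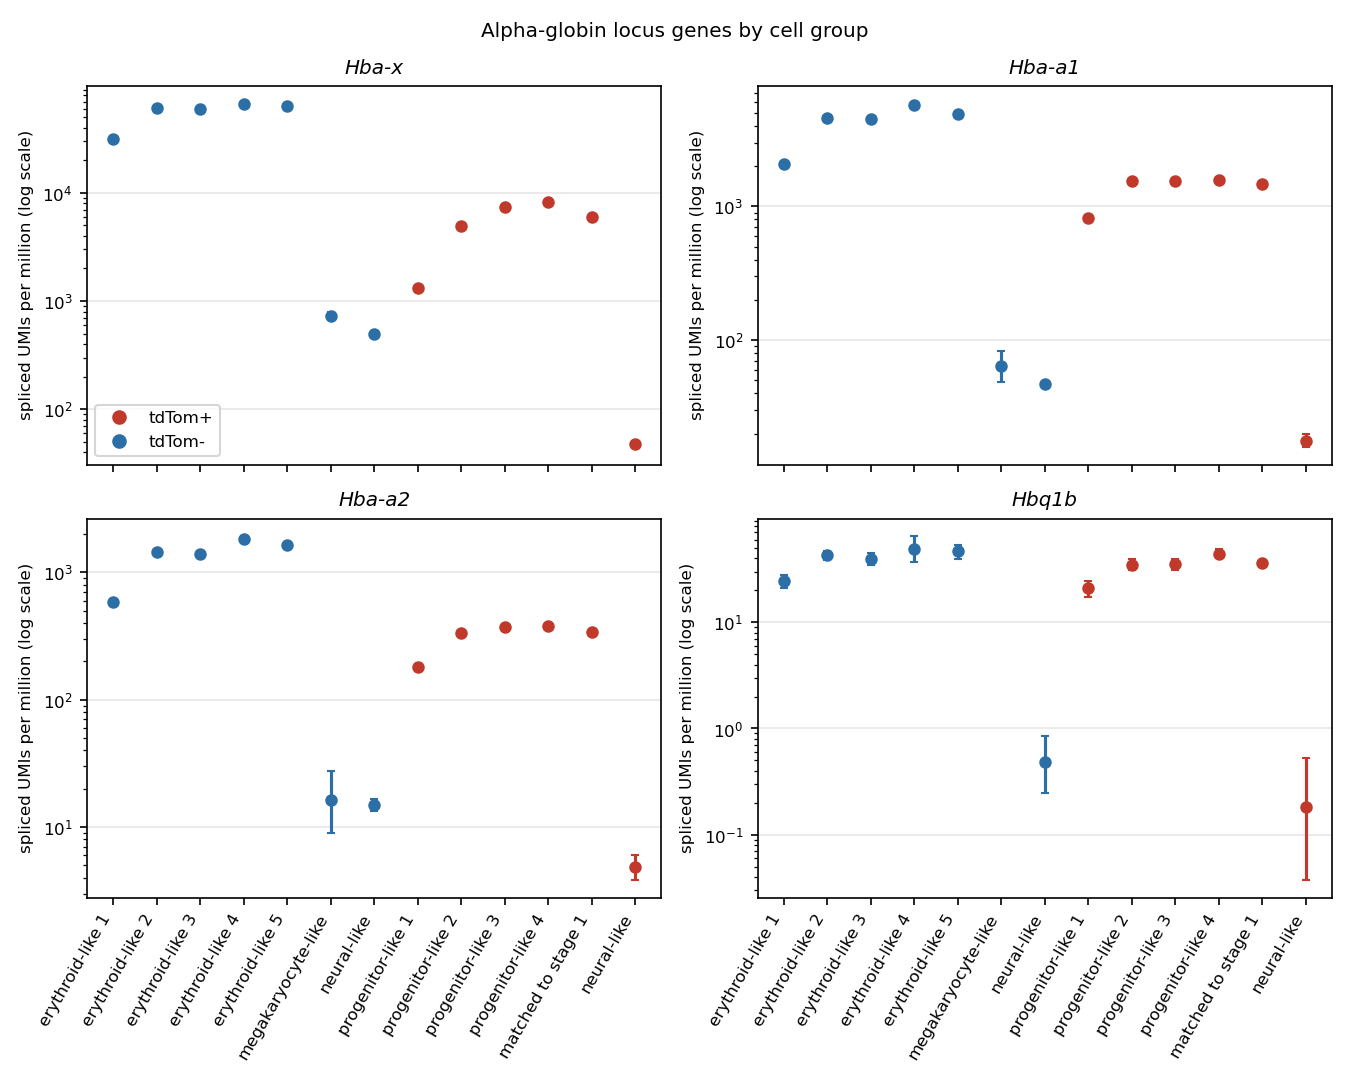
Level of each alpha-globin locus gene in CPM of spliced UMIs (log scale) for the tdTom- erythroid-like stages 1 to 5, megakaryocyte-like and neural-like cells (blue) and for the tdTom+ progenitor-like sub-clusters 1 to 4, the tdTom+ cells matched to stage 1 and tdTom+ neural-like cells (red). Bars are exact 95% counting intervals. *Hba-x* was lower in each tdTom+ blood group drawn than in any tdTom- stage, while *Hbq1b* lay in the same range in both; *Hbq1b* had no UMI in the megakaryocyte-like cells and is not drawn there.

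The mix of alpha-type transcripts moved little over the wildtype stages 1 to 5. *Hba-x* made up 92.1% of the UMIs of the 4 genes in stage 1 (95% interval 92.0 to 92.2), 91.1% in stage 2, 91.0% in stage 3, 89.8% in stage 4 and 90.6% in stage 5 (90.4 to 90.7). *Hba-a1* went from 6.08% in stage 1 to 7.05% in stage 5, and *Hba-a2* from 1.72% to 2.33%. *Hbq1b* stayed at 0.0709% and 0.0663%, with overlapping intervals. Counts of transcript ends need no scaling for length; divided by the length of the GENCODE transcript, the *Hba-x* share was 90.6% in stage 1 and 88.7% in stage 5. *Hba-a1* had 3.54 UMIs for each *Hba-a2* UMI in stage 1 (3.42 to 3.66) and 3.02 in stage 5 (2.93 to 3.11), subject to the uncertain split between the pair.

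In the *Gata1*-mutant cells, the embryonic and the adult genes parted. In matched tdTom+ cells *Hba-x* stood at 6049 CPM (6021 to 6077) against 31486 CPM (31360 to 31613) in tdTom- stage 1, and was 5.21-fold lower, with a log2 fold of -2.38 (-2.39 to -2.37). *Hba-a1* stood at 1466 against 2079 CPM, a log2 fold of -0.50 (-0.53 to -0.48), or 1.42-fold lower. *Hba-a2* stood at 337.7 against 587.4 CPM, a log2 fold of -0.80 (-0.85 to -0.75). *Hbq1b* went the other way, at 36.4 CPM (34.3 to 38.7) against 24.2 CPM (20.8 to 28.0), and was higher in the mutant cells (log2 fold 0.59, 0.36 to 0.82). Over all cells, the spliced and unspliced UMIs of *Hbq1b* together were 1.22 times its total in the authors' Cell Ranger counts. This ratio was 1.01 for *Hba-x*, 1.03 for *Hba-a1* and 0.980 for *Hba-a2*. The intervals do not cover such a difference in counting. The log2 fold of *Hbq1b* turned to -0.44 when called doublets were kept, a setting in which 91.9% of the early tdTom- cells were called doublets. With stages taken from a finer clustering, the values of the adult genes came near 0, at -0.03 for *Hba-a1* and -0.07 for *Hba-a2*, while *Hba-x* was at -1.95. The tdTom- stage 1 cells are shared with the comparison of stages above. Of the 8441 genes with at least 100 UMIs in both groups together, 238 were at least 2-fold lower in tdTom+ cells (2.82%), 561 were at least 2-fold higher (6.65%) and 799 passed in either direction (9.47%), with a median log2 fold of 0.09. Of the 4 alpha-globin locus genes 1, *Hba-x*, was past 2-fold, and their median was -0.65.

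The mix of alpha-type transcripts therefore differed between the fractions by far more than between the tdTom- erythroid-like stages. Those stages had erythroid marker sums from 1282 to 2104 CPM. The matched tdTom+ cells, at 547.7 CPM, lay below that range, where no tdTom- stage was seen. *Hba-x* made up 76.7% (76.5 to 76.8) of the alpha-globin UMIs of the matched tdTom+ cells, *Hba-a1* 18.6%, *Hba-a2* 4.28% and *Hbq1b* 0.462%. Per transcript length the *Hba-x* share was 73.2%. There were 4.13 *Hba-x* UMIs for each *Hba-a1* UMI, against 15.1 in tdTom- stage 1, which is 3.67-fold lower. *Hba-a1* had 4.34 UMIs for each *Hba-a2* UMI (4.25 to 4.44).

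**Figure D2:**
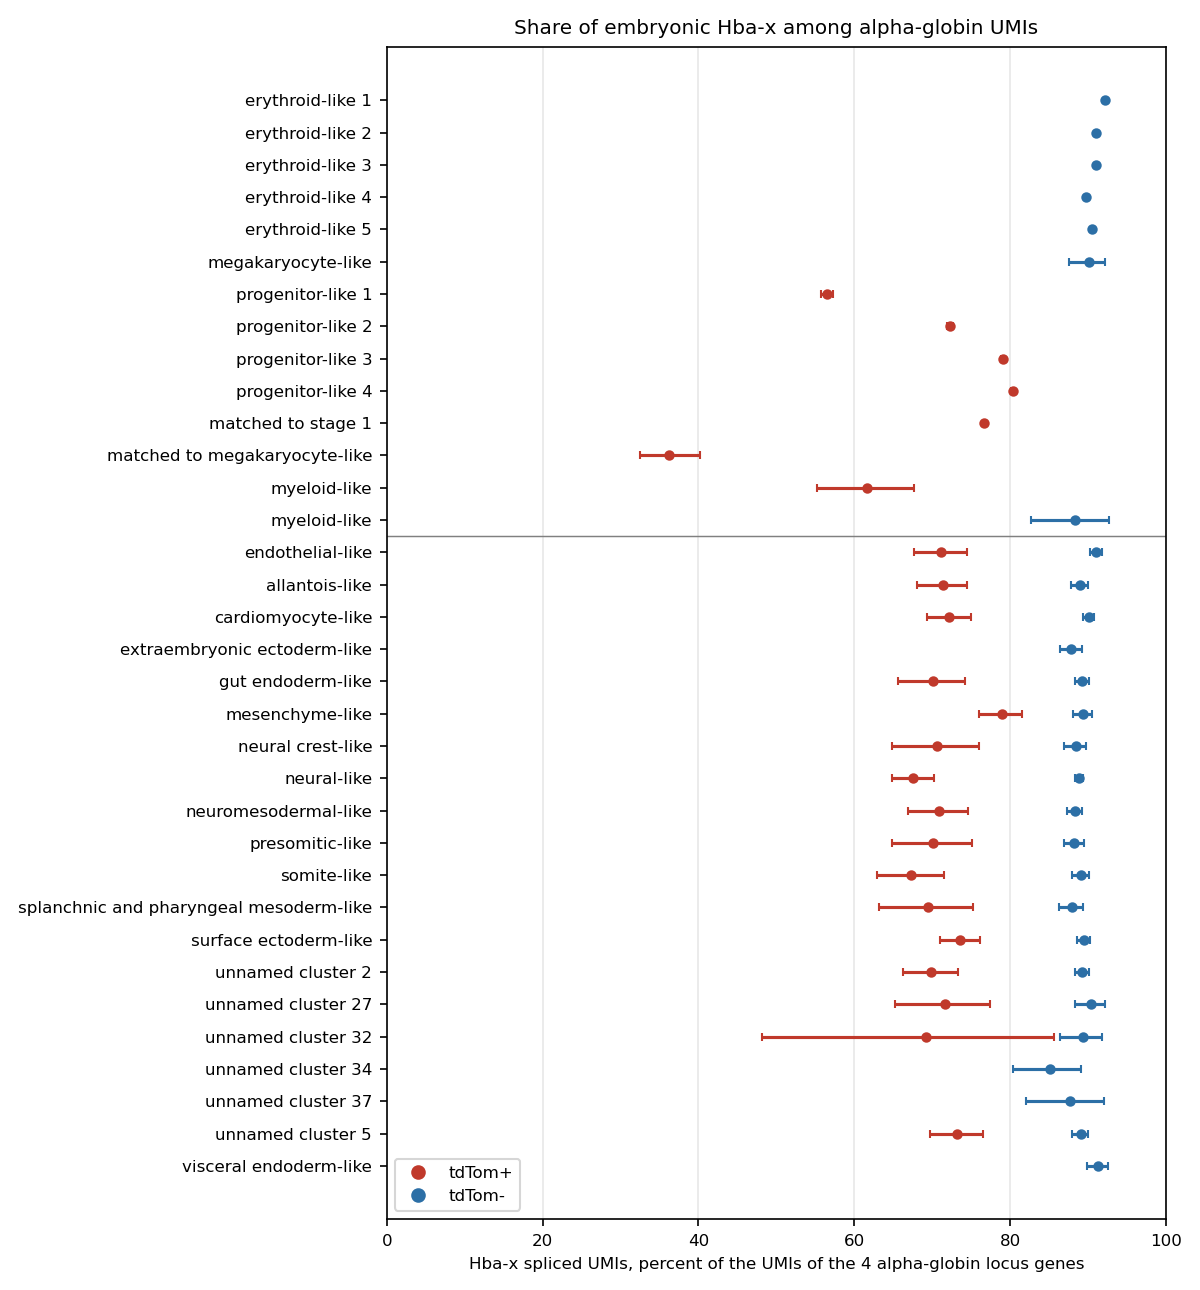
Share of *Hba-x* among the spliced UMIs of the 4 alpha-globin locus genes (percent, horizontal axis) in blood groups (above the grey line) and in endothelial-like and non-blood cell groups (below it), for tdTom+ (red) and tdTom- (blue) cells, with exact 95% intervals. The tdTom- groups sit between 85.1% and 92.1%, and the tdTom+ blood groups between 36.3% and 80.4%.

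The 4 tdTom+ progenitor-like sub-clusters, numbered by rising erythroid marker sum (299.6, 502.1, 603.3 and 645.9 CPM), differed mostly in *Hba-x*. *Hba-x* stood at 1317, 4964, 7418 and 8165 CPM from sub-cluster 1 to 4. *Hba-a1* stood at 814.9, 1541, 1559 and 1575 CPM, and *Hba-a2* at 179.3, 331.5, 368.9 and 376.7 CPM. The intervals of *Hba-a1* overlapped over sub-clusters 2 to 4, and *Hba-a2* was lower in sub-cluster 2 than in 3 and 4, whose intervals overlapped. *Hba-x* differed between all 4. *Hbq1b* stood at 20.8, 34.9, 35.0 and 44.3 CPM. The *Hba-x* share was 56.5% in sub-cluster 1, 72.2% in sub-cluster 2, 79.1% in sub-cluster 3 and 80.4% in sub-cluster 4. Other blood markers moved with this order. The summed myeloid markers (7 genes) were at 163.2 CPM in sub-cluster 1, with 4 of 7 detected and *Csf1r*, *Cx3cr1* and *Ctss* at 0, and between 2.07 and 4.60 CPM in the other 3, beside 1180 CPM in tdTom+ myeloid-like cells. *Spi1*, a myeloid transcription factor that led sub-cluster 1, stood at 252.1 CPM there and at 14.3 CPM in sub-cluster 4. The summed megakaryocyte markers (7 genes) were at 119.2, 42.8, 18.4 and 17.3 CPM from sub-cluster 1 to 4. Their part in the values of the alpha-globin locus genes was not tested. In the 34 tdTom+ cells of the sub-cluster led by *Cdkn1a* the *Hba-x* share was 58.3% (55.9 to 60.8), but these differed from the tdTom- cells of stage 4 in erythroid markers (400.2 against 2037 CPM) and in progenitor markers (1011 against 498.0 CPM).

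The levels were also read by quartile of the erythroid marker sum, in cells of the early stage. The markers and the globin genes share the cells' depth, and several of the markers are known Gata1 targets, so the quartiles are a description. The top tdTom+ quartile (326 cells, markers at 882.8 CPM) and the bottom tdTom- quartile (100 cells, 796.5 CPM) came closest in marker level. There *Hba-x* was at 9553 CPM in the former and 21393 CPM in the latter. *Hba-a1* stood at 1862 against 1376 CPM, *Hba-a2* at 429.5 against 360.0 CPM and *Hbq1b* at 48.5 against 15.5 CPM, so these 3 were higher in the tdTom+ cells. The *Hba-x* share went from 69.2% to 80.3% over the tdTom+ quartiles and from 92.4% to 91.9% over the tdTom- quartiles.

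**Figure D3:**
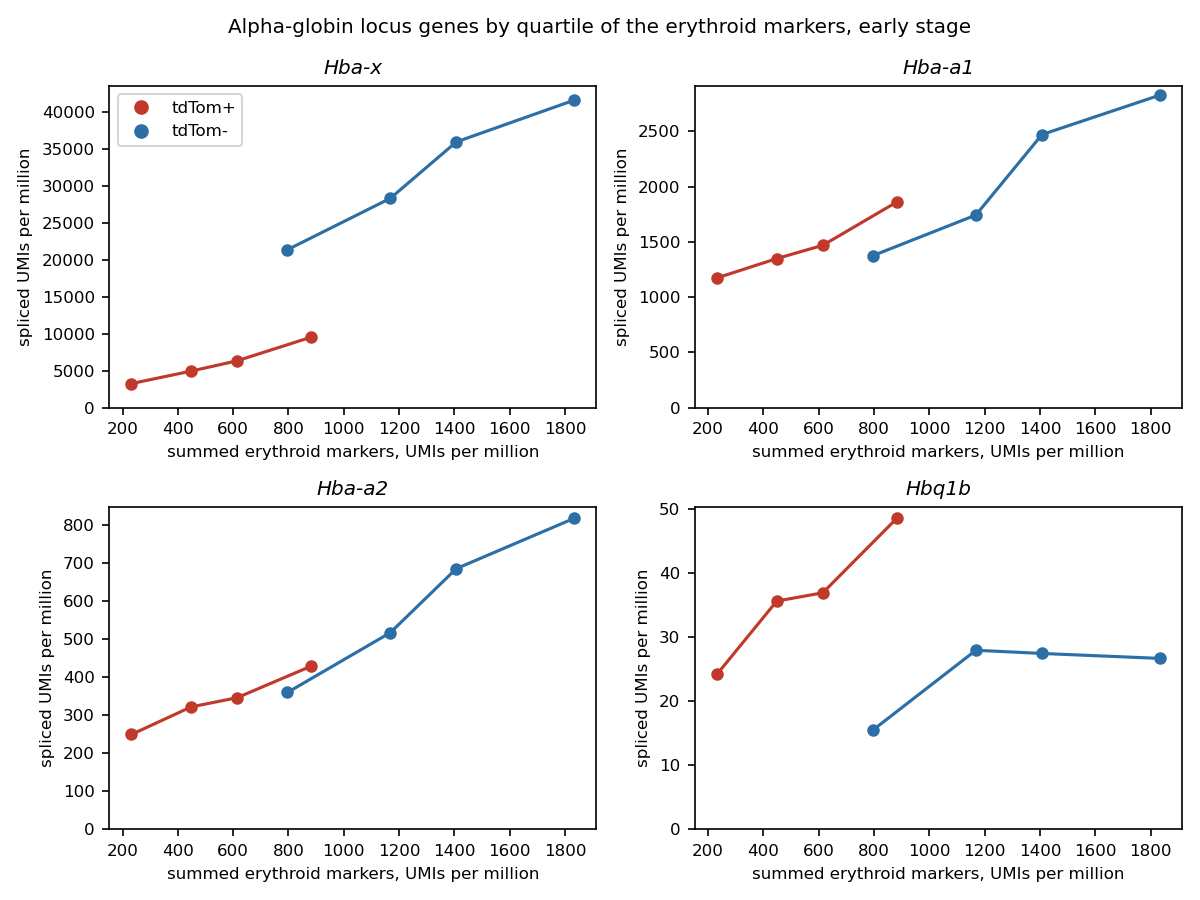
Level of each gene (CPM of spliced UMIs, vertical axis from 0) against the summed erythroid markers (CPM) for 4 quartiles of cells of the early stage, tdTom+ in red and tdTom- in blue. At the nearest marker levels, 882.8 and 796.5, *Hba-x* is lower in tdTom+ cells, and *Hba-a1*, *Hba-a2* and *Hbq1b* are higher.

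In single cells the tdTom+ medians of *Hba-x*, *Hba-a1* and *Hba-a2* were lower. The median *Hba-x* level per cell was 3146 CPM in matched tdTom+ cells, from 50.4 at the first decile to 16243 at the ninth. In tdTom- stage 1 it was 32021, from 13729 to 48914. Only 14 of 1306 tdTom+ cells (1.07%) were above the tdTom- median of *Hba-x*, while 373 (28.6%) were above that of *Hba-a1* and 294 (22.5%) above that of *Hba-a2*. Among cells with at least 20 alpha-globin UMIs, 164 of 1036 tdTom+ cells (15.8%, 13.7 to 18.2) had more *Hba-a1* than *Hba-x* UMIs. In tdTom- stage 1 this held for 1 of 397 cells (0.252%, up to 1.40). In progenitor-like sub-cluster 1 it held for 52 of 114 cells (45.6%) and in sub-cluster 4 for 27 of 379 (7.12%).

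A background level was read from the neural-like cells of each fraction. Of the matched tdTom+ cells, 218 (16.7%) had *Hba-x* at or below the ninth decile of tdTom+ neural-like cells (124.0 CPM), and 108 (8.27%) had *Hba-a1* at or below its own (66.0). In 132 cells (10.1%) *Hba-a1* was above its level and *Hba-x* was not, and in 22 (1.68%) the reverse held. *Hbq1b* was seen with at least 1 UMI in 16.5% of matched tdTom+ cells and 9.80% of tdTom- stage 1 cells after thinning to 5000 UMIs, against 0.211% and 0.130% of neural-like cells. Without thinning these shares were 46.1%, 33.3%, 0.309% and 0.753%, at medians of 21666, 18516, 16771 and 15056 spliced UMIs per cell.

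**Figure D4:**
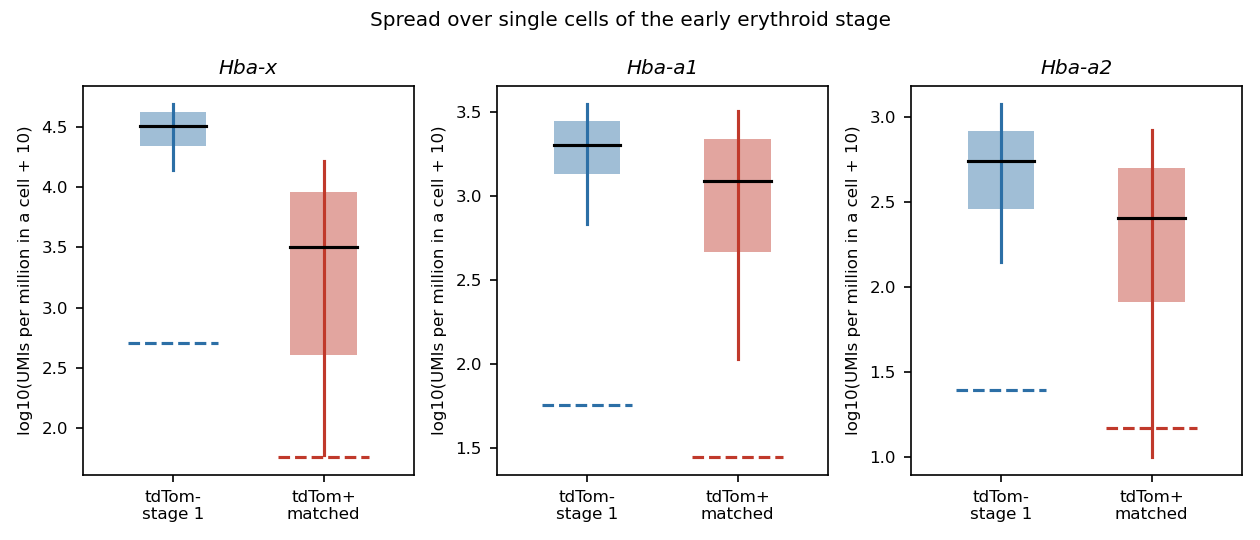
Level per cell, as log10 of CPM plus 10, of *Hba-x*, *Hba-a1* and *Hba-a2* in tdTom- stage 1 (blue, 400 cells) and matched tdTom+ cells (red, 1306 cells). Boxes span the quartiles, black lines are medians, vertical lines run from the first to the ninth decile and dashed lines mark the mean level of neural-like cells of the fraction; the boxes lie apart for *Hba-x*, whose decile lines overlap, and the boxes overlap for *Hba-a1* and *Hba-a2*.

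The beta-type globin genes code for the partner chains. Their UMIs were set against the alpha-type UMIs, *Hbq1b* among them, as transcripts and not as protein. In tdTom- stage 1 there were 1.46 alpha-type UMIs for each beta-type UMI (1.45 to 1.47), 1.41 in stage 2, 1.44 in stage 3, 1.16 in stage 4 and 1.36 in stage 5. In matched tdTom+ cells there were 0.640 (0.636 to 0.643), from 0.275 in progenitor-like sub-cluster 1 to 0.784 in sub-cluster 4. A low ratio was not confined to the tdTom+ fraction. The tdTom- megakaryocyte-like cells had 0.214 (0.197 to 0.233), with alpha-type UMIs at 0.0810% and beta-type UMIs at 0.378% of all UMIs. The tdTom- myeloid-like cells had 1.13 (0.910 to 1.41). Alpha-type UMIs were 3.42% of all UMIs in tdTom- stage 1 and 0.789% in matched tdTom+ cells, and beta-type UMIs 2.35% and 1.23%. Of the 5 beta-type genes measured well enough, 4 were at least 2-fold lower in tdTom+ cells. *Hbb-bs* had a log2 fold of -4.58, *Hbb-bt*, the other adult gene, -1.89, *Hbb-bh2* -1.37 and *Hbb-y* -1.11, while *Hbb-bh1* stood at -0.87. In the alpha cluster the embryonic gene had the largest difference, and in the beta cluster the adult gene *Hbb-bs* did. *Hbq1a*, the copy of *Hbq1b*, had 26 UMIs in the mutant and 1 in the wildtype cells, under the minimum of 100.

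The genes that flank the locus were near the all-gene median. Of *Snrnp25*, *Rhbdf1*, *Mpg*, *Nprl3*, *Sh3pxd2b* and *Ubtd2*, 4 had enough spliced UMIs. Of these 4, 0 were past 2-fold in either direction, beside 9.47% of all genes with at least 100 UMIs. So few genes cannot be set apart from that share. Their log2 folds ran from -0.26 for *Mpg*, a DNA repair glycosylase, to 0.10 for *Ubtd2*. *Nprl3*, which carries the enhancers in its introns, had 91.7% of its UMIs in the unspliced table in matched tdTom+ cells and 93.8% in tdTom- stage 1. Its unspliced UMIs, on the CPM scale of spliced UMIs, were 9.15 and 10.0 in these groups, beside 9.16 and 8.66 in neural-like cells of the tdTom+ and tdTom- fraction. No excess of *Nprl3* unspliced UMIs over neural-like cells was detectable at this depth. *Mpg* stood at 62.0 CPM in matched tdTom+ cells and 74.4 CPM in tdTom- stage 1, above its 40.4 and 40.2 CPM in neural-like cells; the 2 genes overlap on opposite strands.

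Of 10 regulators known at the locus, 9 were measured well enough. *Gata2*, which precedes Gata1 at many of its sites, was 29.2 times as high in matched tdTom+ cells (138.3 against 4.74 CPM). *Gata1* had a log2 fold of -2.17 and *Klf1*, the erythroid factor of CACCC boxes, -1.04 (-1.13 to -0.95), and these 2 were at least 2-fold lower. *Tal1* (0.87) and *Nfe2* (0.74) were higher by less than 2-fold, and *Lmo2* (-0.26), *Ldb1* (0.14), *Zfpm1* (0.14) and *Atrx* (0.21) were nearer to 0. Of the genes for haem supply and chain balance, 4 of 4 measured were at least 2-fold lower, beside 2.82% of all genes with at least 100 UMIs. *Alas2* here and *Klf1* above are among the erythroid markers, whose sum already differed between these groups. *Alas2*, the erythroid enzyme that starts haem synthesis, had a log2 fold of -2.37, *Slc25a37*, the mitochondrial iron importer, -2.37, *Eif2ak1*, the haem-regulated kinase that limits globin translation, -1.28, and *Abcb10*, a mitochondrial transporter, -1.04. *Ahsp*, the chaperone of free alpha chains, was also on this list but was not found under that name among the genes counted.

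**Figure D5:**
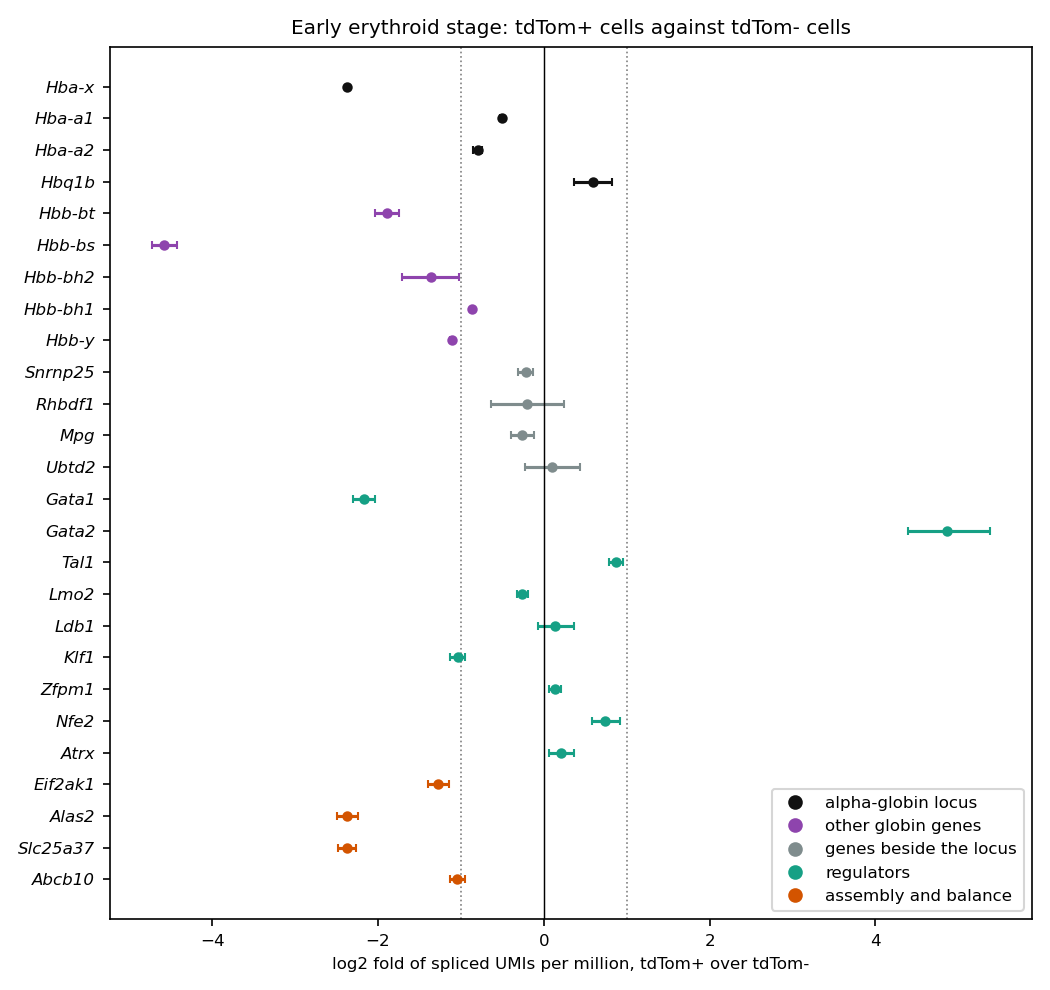
Log2 fold of CPM of spliced UMIs in matched tdTom+ cells over tdTom- stage 1 cells (horizontal axis) for the alpha-globin locus genes and 4 fixed lists with at least 100 UMIs, with exact 95% counting intervals. Dotted lines mark 2-fold. *Hba-x* at -2.38 lies beside *Slc25a37* and *Alas2*, itself among the erythroid markers of the stages, and *Hbq1b* at 0.59 is above 0.

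Over both libraries *Hba-x* had 3707 unspliced UMIs, 0.192% of its total. *Hba-a1* had 7 and *Hba-a2* 2, or 0.00388% and 0.00385%. The introns sum to 916 bases in *Hba-x* and 256 bases in each adult gene. How reads that match both adult copies were counted was not checked, so these percents cannot be compared between the genes. *Hbq1b* had 2, or 0.0808%, too few to set its percent apart from that of *Hba-x*. In tdTom- cells the unspliced percent of *Hba-x* was 0.235% (0.216 to 0.255) in stage 1, 0.177% in stage 2, 0.131% (0.119 to 0.144) in stage 3, 0.179% in stage 4 and 0.238% (0.219 to 0.258) in stage 5. Stages 1 and 5 were alike within their intervals and stage 3 was lowest. With the finer clustering the last stage gave 0.186%, so its level depended on the clustering. In matched tdTom+ cells it was 0.117% (0.101 to 0.134), below that of tdTom- stage 1. In non-blood cells it was 0.436% in the tdTom- fraction (247 unspliced UMIs) and 0.371% in the tdTom+ fraction (24 unspliced UMIs).

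Outside blood, *Hba-x* was lower in each group than in any erythroid-like or progenitor-like group of the same fraction, and its level differed between the fractions. Blood cells, 16.9% of kept tdTom- and 18.9% of kept tdTom+ cells, held 95.9% and 96.2% of the *Hba-x* UMIs. In neural-like cells, a type that should lack globin, *Hba-x* stood at 496.6 CPM (487.9 to 505.4) in the tdTom- and 47.5 CPM (44.2 to 50.9) in the tdTom+ fraction. Over 19 tdTom- non-blood groups it ran from 401.8 to 3552 CPM with a median of 489.7 CPM, and over 15 tdTom+ groups from 31.6 to 80.3 CPM with a median of 55.0 CPM. The highest tdTom- value was that of an unnamed cluster of 59 cells with a low depth, a median of 1049 UMIs per cell. The next highest was that of the 62 visceral endoderm-like cells, at 1177 CPM, but their median per cell was 353.6 CPM, below the 432.1 CPM of neural-like cells, and 1 cell reached 37096 CPM. Endothelial-like cells stood at 839.8 CPM in the tdTom- and 57.0 CPM in the tdTom+ fraction. In the former the median per cell was 413.2 CPM against 432.1 CPM in neural-like cells, and the highest cell was at 18773 CPM.

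The mix in these cells also differed between the fractions. *Hba-x* made up 89.1% (88.8 to 89.3) of the alpha-globin UMIs of tdTom- and 71.6% (70.7 to 72.5) of those of tdTom+ non-blood cells. The shares ran from 85.1% to 91.3% over the tdTom- and from 67.3% to 78.9% over the tdTom+ groups, so that the ranges of the fractions did not overlap. Both were somewhat below the share in the erythroid-like stages together (91.1%) and in the matched tdTom+ cells (76.7%). The levels outside blood are the background against which those in blood are set. The part of free RNA in them was not tested. The unspliced percent of *Hba-x* given above was higher outside blood than in the erythroid-like stages or the matched tdTom+ cells. Alpha-type UMIs for each beta-type UMI outside blood were 1.37 in the tdTom- fraction, beside 1.40 in the erythroid-like stages together. In the tdTom+ fraction they were 0.709 outside blood, beside 0.640 in the matched cells.

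In the wildtype fraction the other blood cells were nearer to the neural-like level than to stage 1. In the 51 tdTom- megakaryocyte-like cells *Hba-x* stood at 729.9 CPM, 1.47 times the neural-like level, *Hba-a1* at 64.1 CPM and *Hba-a2* at 16.3 CPM. Their median *Hba-x* level per cell was 393 CPM, below the 432.1 CPM of tdTom- neural-like cells, and their highest cell was at 9662 CPM. *Hbq1b* had 0 UMIs in the megakaryocyte-like cells, with an upper limit of 4.30 CPM. In 90 mutant cells whose nearest wildtype cells were megakaryocyte-like, *Hba-a1* stood at 165.1 CPM (146.9 to 184.8), above *Hba-x* at 121.7 CPM (106.3 to 138.9). These were 9.29 and 2.56 times the levels of tdTom+ neural-like cells, and the *Hba-x* share was 36.3% (32.5 to 40.2), the lowest of any group drawn in the plot of the shares. A minority of these cells carried the summed values: the median per cell was 0 CPM for *Hba-a1* and 45.4 CPM for *Hba-x*, 63 of the 90 cells (70%) were at or below the neural-like ninth decile of *Hba-a1*, and 6 cells had at least 20 alpha-globin UMIs. Their summed myeloid markers were at 319.7 CPM and their summed megakaryocyte markers at 271.4 CPM, against 136.4 and 776.5 CPM in the tdTom- megakaryocyte-like cells. In the 203 tdTom+ and 27 tdTom- myeloid-like cells *Hba-x* was 0.830 and 0.651 times the neural-like level, and *Hbq1b* had 0 UMIs in both, with upper limits of 0.944 and 7.50 CPM.

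The genes most like each member were read over 78 groups of cluster and fraction with at least 20 cells, as Pearson's r of log2(CPM + 10) among 13694 genes, the 4 members left out. The groups share libraries, so the values are a description. For *Hba-x* they included *Hbb-y* (0.98), *Hbb-bh1* (0.93), *Blvrb* (0.89) and *Cpox* (0.87). For *Hba-a1* they were *Hbb-bh1* (0.98), *Blvrb* (0.95), *Hbb-y* (0.94), *Cpne7* (0.94) and *Cpox* (0.94). For *Hba-a2* they were *Hbb-bh1* (0.97), *Alas2* (0.95), *Epb42* (0.95), *Blvrb* (0.95) and *Kel* (0.95). For *Hbq1b* they were *Cpne7* (0.96), *Rhag* (0.94), *Kel* (0.94), *Pfkfb4* (0.92) and *Ell2* (0.92). *Hbq1b* itself was at 0.95 with *Hba-a2* and 0.95 with *Hba-a1*. Among the members, *Hba-a1* and *Hba-a2* were closest (0.99) and *Hba-x* and *Hbq1b* farthest apart (0.80). The groups include non-blood cells, where the median *Hba-x* level was 489.7 CPM over tdTom- and 55.0 CPM over tdTom+ groups. The medians of *Hbq1b* there were 0.464 and 0.303 CPM, below the 10 CPM added before the log. The part of this background in the values of r was not tested.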

How the data were processed

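Cells of both fractions were sequenced on the 10x platform. The deposited tables hold whole-number counts, spliced and unspliced UMIs per cell and gene, which the authors made with velocyto after alignment with Cell Ranger 3.0.2 to GRCm38 (mm10). A deposited table of cells holds the percent of mitochondrial counts, from the authors' processing. Of 18233 cells, 897 were called as doublets here; these and clusters made mostly of such calls were removed, and 17302 cells were kept. Cells were clustered without globin genes (scanpy 1.11.5, leidenalg 0.10.2) and named by fixed markers. Each tdTom+ blood cell took the most frequent sub-cluster of its 15 nearest tdTom- blood cells. Counts were summed per group and given as CPM with exact 95% Poisson, binomial or conditional intervals (scipy 1.17.1), which cover counting error only. Folds were called at 2-fold, among genes with at least 100 UMIs over both groups. With 1 library per fraction no test was run; fractions cannot be told apart from libraries. The fold calculation was tested on simulated data. Thinning took 5000 UMIs per cell and left out 524 shallower cells. The genes named were the 4 members, the fixed lists and the 5 genes most like each member, of which 1 is not reported here. Members and lists were chosen with earlier results of these data known.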

Additional observations from a re-analysis of the deposited data

How the results depend on the processing

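No paired analysis was possible because each fraction has 1 library. *Hba-x* was lower in tdTom+ cells of the early stage under every setting run. Its log2 fold was -2.40 with globin genes used for clustering, -1.95 at Leiden resolution 2 and -2.44 without globin genes in the denominator. It was -2.39 with unspliced UMIs added, -2.40 with cosine matching and -3.11 with doublets kept. With the neural-like level subtracted, as a stand-in for free RNA, it was -2.37. For *Hba-a1* the log2 folds were -0.41 (globin clustering), -0.03 (resolution 2), -0.56 (denominator), -0.56 (thinned cells) and -1.43 (doublets kept). For *Hba-a2* they were -0.66, -0.07, -0.85 and -1.79 under the same settings without thinning, and for *Hbq1b* 0.89 at resolution 2 and -0.44 with doublets kept, a change of sign. With doublets kept, the early stage was 124 tdTom- cells of which 91.9% were called doublets. Leaving out stages made mostly of called doublets, a setting chosen after seeing the data, as was cosine matching, gave -2.41, -0.43, -0.67 and 0.62 for *Hba-x*, *Hba-a1*, *Hba-a2* and *Hbq1b*.

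The *Hba-x* share of alpha-globin UMIs in tdTom- stage 1 was 91.2% with doublets kept, 92.0% thinned, and 92.3% with globin clustering, at resolution 2 and without mostly-doublet stages. In the last stage it was 89.7% with doublets kept, with or without those stages, 90.7% with globin clustering and 90.4% thinned. In matched tdTom+ cells it was 77.2% with doublets kept, 75.6% with globin clustering and without mostly-doublet stages, and 76.0% at resolution 2. The unspliced percent of *Hba-x* was 0.209% in the early stage with doublets kept, and in the last stage 0.172% with doublets kept, with or without those stages, and 0.186% at resolution 2. The count of genes past 2-fold was 181 with doublets kept, 375 in thinned cells and 2332 with a minimum of 1 UMI, against 799. The last stage with doublets kept was a group of 57 tdTom- cells, in place of 238. This group was led by *Cdkn1a*, as stage 4 was in the main setting, so it was not the same group of cells as stage 5. The cause of these moves was not tested. The spread between embryos cannot be had from 1 library per fraction.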
